A study of Mus musculus with 9 samples.

Results

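Interferon-stimulated antiviral genes are the genes that cells switch on when an interferon binds its receptor. A type I interferon bound to its receptor activates JAK1 and TYK2, which leads to the assembly of ISGF3, a complex with STAT2 and IRF9 among its subunits that binds a promoter element called the interferon-stimulated response element (ISRE). The products of its target genes sense viral nucleic acid, block viral replication and raise antigen presentation, and in bone marrow type I interferon is known to draw stem cells out of dormancy. The set described here is a list of 48 gene symbols picked for what the genes are known to do. Of these, 44 are in the deposited table of 14940 genes and all 44 passed the filter on low values, which left 13018 genes to be tested. Isg15, Ifit3, Ifit3b and Ifi47 are not analysed here.

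The RNA came from 9 C57BL/6 mice, whose bone marrow was sorted for LSK cells. These lack lineage markers, carry Sca-1 and c-Kit, and comprise blood stem cells and multipotent progenitors. The first group of 3 mice (EAE + SR59230A) was immunized for experimental autoimmune encephalomyelitis with complete Freund's adjuvant and the peptide MOG35-55, and received SR59230A, a β3-adrenergic receptor antagonist, during the 3 days that followed. The second group of 3 mice (EAE) was immunized in the same way and sampled at 3 days, and the third group of 3 mice was naive. The labels name no vehicle and no group given adjuvant alone, so the antagonist cannot be told apart from its administration, nor the peptide from the adjuvant, which contains mycobacteria. Sca-1, on which the cells were sorted, is encoded by Ly6a, which is itself inducible by interferon.

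The table holds values that were adjusted before deposit rather than counts of reads, and the depth of each library is unknown. Values are given here as scaled values, divided by a factor per library of 0.9005 to 1.107. The library sums ran from 8641735 to 10387955. A gene's values may be compared between libraries but not with those of another gene, since whether transcript length was taken out is not given. Differences are log2 fold changes of the scaled value plus 1 with their SE, and a gene was called where limma's 2-sided test, with Benjamini-Hochberg adjustment over all 13018 genes, gave an adjusted p under 0.05. Means are given ± SD with n = 3 mice in each group. EAE replicate 2 stood apart from the other 8 libraries on the third principal component, and its neutrophil marker sum of 3052 compares with 10844 and 15225 in the other EAE libraries, so the genes whose calls change without it are named with each comparison.

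Of the 44 genes, 32 matched a promoter in RefSeq (GRCm38.p6, 250 bases before to 50 after each start). The core of the ISRE, written as TTTC, any 2 bases and TTTC, or GAAA, any 2 bases and GAAA on the other strand, was found in the promoters of 11 of these 32 genes, against 3.99% of 27025 mouse genes. The 11 were B2m, Bst2, Ddx58, Eif2ak2, Ifih1, Ifit1, Oas1a, Oas3, Rsad2, Stat2 and Trim30a. The γ-interferon-activated site, TTC, any 3 bases and GAA, which reads the same on both strands, was found in 9 of the 32 genes, against 9.55% of all genes, and in Bst2 it overlaps the ISRE match. Among the 12 genes called in at least 1 comparison, 9 matched a promoter and 3 of these held the ISRE core, while among the 32 genes called in none, 23 matched and 8 held it. A match is a description of the letters in this window and no evidence that a factor binds there.

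The stretches around the matches are shown for the 3 called genes that hold the core, 5′ to 3′ on the strand of the gene, with the matched bases in capitals. Bst2 and Oas1a each hold 2 overlapping matches, and Ifit1 holds 2 separate ones.
Bst2, chr8:71537542-71537647 (minus strand): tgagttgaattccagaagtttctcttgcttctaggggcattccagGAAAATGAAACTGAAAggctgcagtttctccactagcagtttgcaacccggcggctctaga
Oas1a, chr5:120907526-120907590 (minus strand): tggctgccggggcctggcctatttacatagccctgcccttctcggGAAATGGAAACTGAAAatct
Ifit1, chr19:34640740-34640858 (plus strand): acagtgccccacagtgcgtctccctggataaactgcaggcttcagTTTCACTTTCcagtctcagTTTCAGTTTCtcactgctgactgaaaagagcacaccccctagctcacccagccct
The same element stands in promoters of genes of the list that were not called in any comparison, of which an effector with no evident difference, one with a difference below the threshold and the light chain of MHC class I are shown.
Rsad2, chr12:26456518-26456617 (minus strand): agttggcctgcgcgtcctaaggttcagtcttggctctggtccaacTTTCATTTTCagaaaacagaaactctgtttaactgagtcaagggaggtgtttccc
Oas3, chr5:120777680-120777779 (minus strand): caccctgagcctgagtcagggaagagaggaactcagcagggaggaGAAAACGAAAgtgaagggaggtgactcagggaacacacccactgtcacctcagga
B2m, chr2:122147503-122147602 (plus strand): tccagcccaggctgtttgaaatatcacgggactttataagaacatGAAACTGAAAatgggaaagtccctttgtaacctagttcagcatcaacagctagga
The element thus stands in called and in uncalled genes alike.

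In EAE mice, 4 of the 44 genes were higher than in naive mice and none was lower. At an unadjusted p under 0.05, 12 were higher (27.3%, against 17.1% of all genes) and 0 lower (against 11.7%). All 4 called genes encode antiviral effectors, namely Oas2, Oas1a, Oasl1 and Bst2. Called genes that were higher made up 9.13% of all genes tested and 9.09% of the list, so the count of calls is at the background, while 14.2% of all genes were called in either direction and 5.1% were lower. The median log2 fold change of the 44 genes was 0.11, beside -0.003 over all genes, and 32 of the 44 were above 0. Values of the EAE and naive libraries did not overlap, with EAE higher, for 13 of the 44 genes (29.5%) and for 21% of all genes, and with EAE lower for Samhd1 and for 18.4% of all genes. Without EAE replicate 2, 9 genes were called higher, with Irf7, Oasl2, Parp9, Ifi35 and Eif2ak2 added to the 4, and the median was 0.20. Oas2 and Bst2 were the genes called without naive replicate 1, without scaling between libraries and with upper-quartile scaling, and Bst2 alone was called without a trend of the variance with the level.

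In EAE + SR59230A mice, 11 of the 44 genes were higher than in naive mice and none was lower. At an unadjusted p under 0.05, 24 were higher (54.5%, against 18.5% of all genes) and 0 lower (against 12.6%). The called genes were the effectors Bst2, Oas2, Oasl2, Cmpk2, Ifit1 and Oas1a, the sensor Zbp1, the transcription factor Irf7, Parp9, Parp12 and Lgals3bp. This is 25% of the list, beside 10.2% of all genes called higher, 4.61% called lower and 14.8% called in either direction. The median log2 fold change was 0.27 for the 44 genes and 0.007 for all genes, and 38 of the 44 were above 0. Values of the EAE + SR59230A and naive libraries did not overlap, with the treated mice higher, for 29 of the 44 genes (65.9%) and for 26.4% of all genes, and with the treated mice lower for Ifit2 and Samhd1 and for 22.4% of all genes. Without EAE replicate 2, which enters this comparison only through the scaling, the covariates and the shared estimate of the spread, 21 of the 44 were called, with Stat2, Oas3, Oasl1, Mx1, Trim30a, Ifi35, Adar, Eif2ak2, Tapbp and Nlrc5 added to the 11. The same 21 were called without EAE replicate 3, and 19 without EAE replicate 1. Without scaling, the 4 called were Irf7, Oas2, Bst2 and Zbp1, so that Ifit1, Oas1a, Oasl2, Parp9, Parp12, Cmpk2 and Lgals3bp lost their calls. With upper-quartile scaling Parp9, Cmpk2 and Lgals3bp were called besides those 4, and without a variance trend Bst2 and Lgals3bp alone were.

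Between EAE + SR59230A and EAE mice, none of the 44 genes was called by limma, and 1 of all 13018 genes was (0.00768%). At an unadjusted p under 0.05, 7 of the 44 were higher in the treated mice (15.9%) and none was lower, beside 2.23% of all genes higher and 1.64% lower. These 7 were Oas3, Bst2, Lgals3bp, Zbp1, Stat2, Irf7 and H2-D1. The log2 fold changes ran between -0.20 and 0.50 with a median of 0.13, beside 0.01 over all genes, and 38 of the 44 were above 0. Values did not overlap, with EAE + SR59230A higher, for 15 of the 44 genes (34.1%) and for 8.46% of all genes, and with EAE + SR59230A lower for Ifit2 and for 7.71% of all genes. A longer list of calls against naive mice in one group than in the other does not show that the groups differ, and this direct test made no call. The unadjusted 95% interval of a gene of the list had a median half-width of 0.27 on the log2 scale in each comparison. Differences of this size were hard to detect, and since calls needed an adjusted p, larger ones could go uncalled too. Between EAE + SR59230A and EAE mice, the interferon-inducible gene Gbp2, outside the list, differed by 0.77 ± 0.17. It was not called by limma (unadjusted p = 6.6e-04, adjusted p = 0.857).

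**Figure D1:**
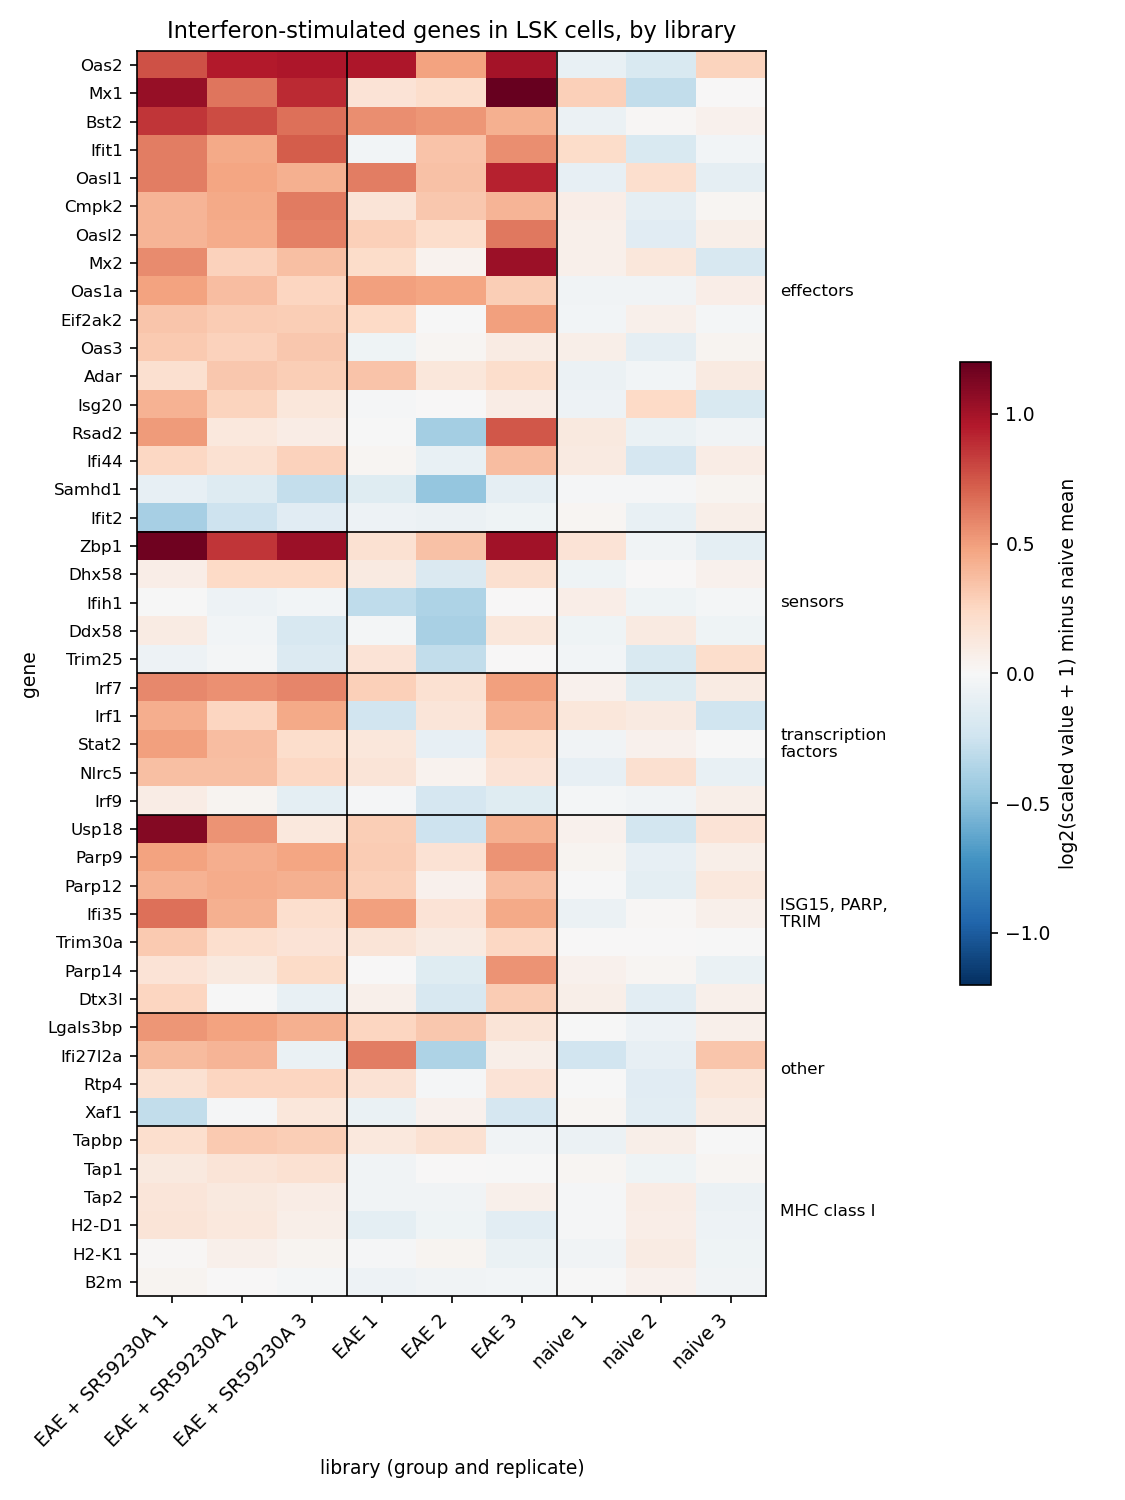
Each row is 1 of the 44 genes, grouped by role, and each column 1 library. Colour gives log2(scaled value + 1) minus the mean of the 3 naive libraries, with red for higher and blue for lower. Oas2, Mx1, Bst2 and Zbp1 are the reddest rows, EAE replicate 2 is paler than the other EAE libraries in many rows, and the MHC class I rows are close to white throughout.

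The 3 comparisons share their libraries, so the order of the group means was also counted gene by gene. The mean was highest in EAE + SR59230A mice, intermediate in EAE mice and lowest in naive mice for 28 of the 44 genes (63.6%) and for 23.1% of all genes. For 6 genes EAE + SR59230A was highest and EAE lowest (13.6%, against 7.94% of all genes), and for 4 genes EAE was highest and naive lowest (9.09%, against 19.4%). Naive mice had the highest mean for the other 6 genes (against 42.1% of all genes), Samhd1, Ifit2, Ifih1, Ddx58, Trim25 and Xaf1.

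By library, the median of the 44 genes relative to the naive mean (log2) was 0.35, 0.28 and 0.24 in EAE + SR59230A mice, 0.15, 0.03 and 0.23 in EAE mice, and 0.00, -0.04 and 0.03 in naive mice. The EAE + SR59230A libraries were above all EAE and naive libraries, and EAE replicate 2 lay within the naive range. Over all genes the same median stayed between -0.01 and 0.02 in the 9 libraries. Within the EAE group, replicate 3 had the highest value for 30 of the 44 genes (68.2%, against 36.9% of all genes) and replicate 2 the lowest for 27 (61.4%, against 33.6%). The highest over the lowest library of a gene within the EAE group was 1.255-fold in the median for the 44 genes and 1.24-fold for all genes, and it was widest for Rsad2 (2.23-fold), Mx1 (2.06-fold), Ifi27l2a (1.996-fold) and Mx2 (1.993-fold).

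**Figure D2:**
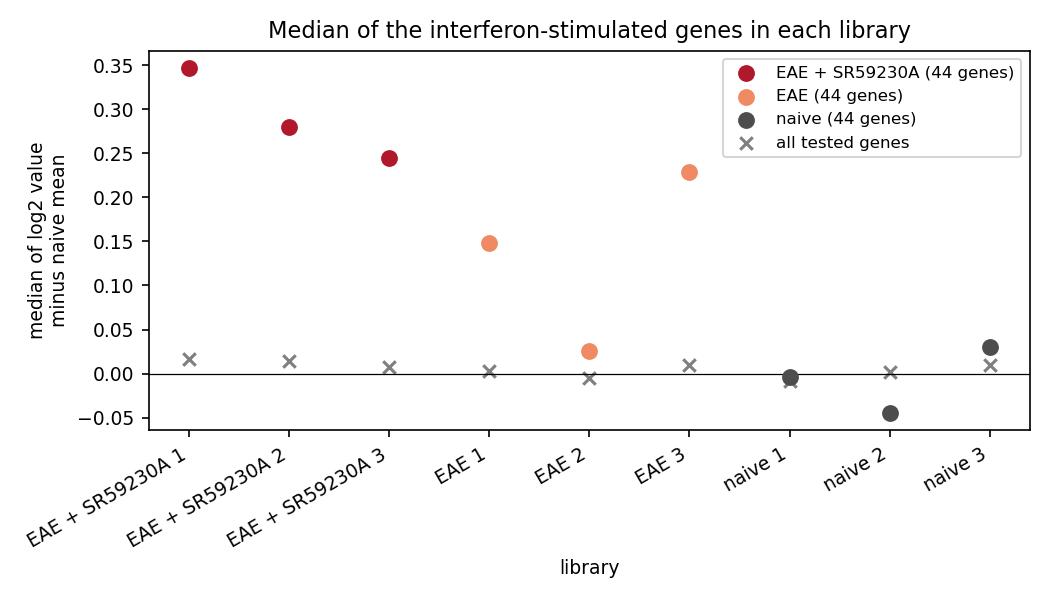
Coloured points give, for each library, the median over the 44 genes of log2(scaled value + 1) minus the naive mean, and crosses give the same over all 13018 tested genes. The 3 EAE + SR59230A libraries lie between 0.24 and 0.35, EAE replicate 2 at 0.03, and the crosses near 0.

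Of the 17 effectors, 6 were higher in EAE + SR59230A mice (35.3%, against 10.2% of all genes) and 4 were higher in EAE mice (23.5%, against 9.13%), each against naive mice. The oligoadenylate synthetases make the small RNAs that activate RNase L, which cuts viral and cellular RNA. Oas2 had scaled values of 2210, 2522 and 2554 in EAE + SR59230A mice, 2561, 1821 and 2610 in EAE mice, and 1230, 1150 and 1568 in naive mice. The lowest immunized library was above the highest naive library, while both immunized groups overlapped. The log2 fold change of Oas2 was 0.90 ± 0.15 in EAE + SR59230A against naive mice (adjusted p = 0.0035) and 0.82 ± 0.16 in EAE against naive mice (adjusted p = 0.0056). Oas1a had 549, 508 and 469 in EAE + SR59230A mice, 553, 544 and 480 in EAE mice, and 380, 381 and 415 in naive mice. Immunized libraries were again all above naive ones, by 0.37 ± 0.11 with SR59230A (adjusted p = 0.043) and 0.42 ± 0.11 without it (adjusted p = 0.027). Both calls were lost without naive replicate 1 (adjusted p = 0.087 and 0.058), and that with SR59230A also without naive replicate 2, treated replicate 1 or treated replicate 2. Oas1a belongs to a cluster of near-identical genes, and the counting that could have divided reads among them is not given in the sources used here.

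Oas3, the largest synthetase of the family, had 677, 661 and 681 in EAE + SR59230A mice, 526, 553 and 582 in EAE mice, and 573, 506 and 558 in naive mice. The treated libraries lay above both other groups, which overlapped, but neither difference was called. It was 0.28 ± 0.10 against EAE mice (adjusted p = 0.998) and 0.31 ± 0.10 against naive mice (adjusted p = 0.058). Oasl1, which in mice has no synthetase activity and restrains translation of Irf7 mRNA, had 236, 214 and 207 in EAE + SR59230A mice, 236, 196 and 292 in EAE mice, and 144, 177 and 143 in naive mice. It was called in EAE mice (0.63 ± 0.17, adjusted p = 0.03) and missed the threshold in EAE + SR59230A mice (0.51 ± 0.17, adjusted p = 0.066), with no overlap of either group with naive mice. Without naive replicate 1 the Oasl1 call in EAE mice was lost (adjusted p = 0.071), and without any 1 EAE replicate, or without naive replicate 2, Oasl1 passed in EAE + SR59230A mice (adjusted p between 0.020 and 0.048). Oasl2, an active synthetase-like enzyme in mice, had 2341, 2400 and 2671 in EAE + SR59230A mice, 2148, 2039 and 2738 in EAE mice, and 1842, 1606 and 1844 in naive mice. It was higher in EAE + SR59230A than in naive mice by 0.49 ± 0.12 (adjusted p = 0.022), a call lost without treated replicate 3 (adjusted p = 0.053), and the difference between EAE and naive mice was 0.38 ± 0.12 (adjusted p = 0.061), which passed without EAE replicate 1, EAE replicate 2 or treated replicate 3.

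Bst2, or tetherin, which holds budding virions at the cell surface, had the clearest order of the groups. Its scaled values were 1333, 1261 and 1158 in EAE + SR59230A mice, 1081, 1060 and 985 in EAE mice, and 700, 741 and 762 in naive mice. No 2 groups overlapped, and the group means were 1251 ± 88, 1042 ± 50.5 and 734 ± 31.1. Bst2 was higher by 0.77 ± 0.09 in EAE + SR59230A than in naive mice (adjusted p = 5.0e-04), and by 0.51 ± 0.09 in EAE than in naive mice (adjusted p = 0.0055). The difference between the EAE + SR59230A and EAE groups was 0.26 ± 0.09 (unadjusted p = 0.018, adjusted p = 0.998).

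Ifit1, which binds RNA whose cap lacks the methyl group of host mRNA, had 459, 412 and 499 in EAE + SR59230A mice, 293, 382 and 442 in EAE mice, and 350, 263 and 293 in naive mice. Only the EAE + SR59230A group was clear of the naive libraries (0.60 ± 0.17, adjusted p = 0.033), and the EAE group overlapped both others. The call was lost without treated replicate 1, treated replicate 3 or naive replicate 2 (adjusted p between 0.062 and 0.076). Cmpk2, a mitochondrial nucleotide kinase, had 824, 846 and 954 in EAE + SR59230A mice, 690, 775 and 823 in EAE mice, and 655, 574 and 630 in naive mice. Its groups did not overlap, and the call was in EAE + SR59230A against naive mice alone (0.50 ± 0.11, adjusted p = 0.012), the EAE difference being 0.30 ± 0.11 (adjusted p = 0.093). Ifit2, of the same family as Ifit1, had 157, 173 and 188 in EAE + SR59230A mice, 198, 196 and 199 in EAE mice, and 210, 193 and 216 in naive mice. Here the treated libraries were below the other groups, with a difference of -0.26 ± 0.13 from naive mice that was not called (adjusted p = 0.21).

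Mx1, a dynamin-like GTPase that blocks orthomyxoviruses and whose gene is defective in C57BL/6 mice, had 236, 179 and 213 in EAE + SR59230A mice, 128, 132 and 264 in EAE mice, and 140, 92.9 and 115 in naive mice. The high EAE value came from replicate 3, and the others lay within the naive range. The difference of EAE + SR59230A from naive mice was 0.86 ± 0.27 and just missed the threshold (adjusted p = 0.051), which it passed without any 1 EAE replicate or without naive replicate 1 (adjusted p between 0.0064 and 0.049). Mx2, its neighbour and close relative, had 205, 168 and 178 in EAE + SR59230A mice, 162, 142 and 283 in EAE mice, and 144, 152 and 121 in naive mice, again with EAE replicate 3 far above the other EAE libraries. Rsad2, or viperin, which makes a chain-terminating nucleotide, showed the same library on top with 256, 196 and 190 in EAE + SR59230A mice, 179, 135 and 301 in EAE mice, and 195, 170 and 174 in naive mice. The log2 difference of Rsad2 between EAE + SR59230A and naive mice was 0.24 ± 0.25 (adjusted p = 0.54).

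Among the remaining effectors, Adar, which edits double-stranded RNA, and Eif2ak2, the kinase PKR, had differences of 0.27 ± 0.10 and 0.31 ± 0.13 between EAE + SR59230A and naive mice, neither of them called (adjusted p = 0.079 and 0.12). Both passed without EAE replicate 2 or EAE replicate 3, and Adar also without EAE replicate 1 or naive replicate 3. Samhd1, which depletes deoxynucleotides, had 537, 517 and 472 in EAE + SR59230A mice, 520, 416 and 535 in EAE mice, and 570, 570 and 591 in naive mice. All naive values were above all immunized ones, but the differences of -0.18 ± 0.12 with SR59230A and -0.24 ± 0.12 without it were not called (adjusted p = 0.32 and 0.20). The exonuclease gene Isg20 and Ifi44 had differences from naive mice of 0.27 ± 0.15 and 0.24 ± 0.13 in EAE + SR59230A mice, with adjusted p = 0.24 and 0.25.

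**Figure D3:**
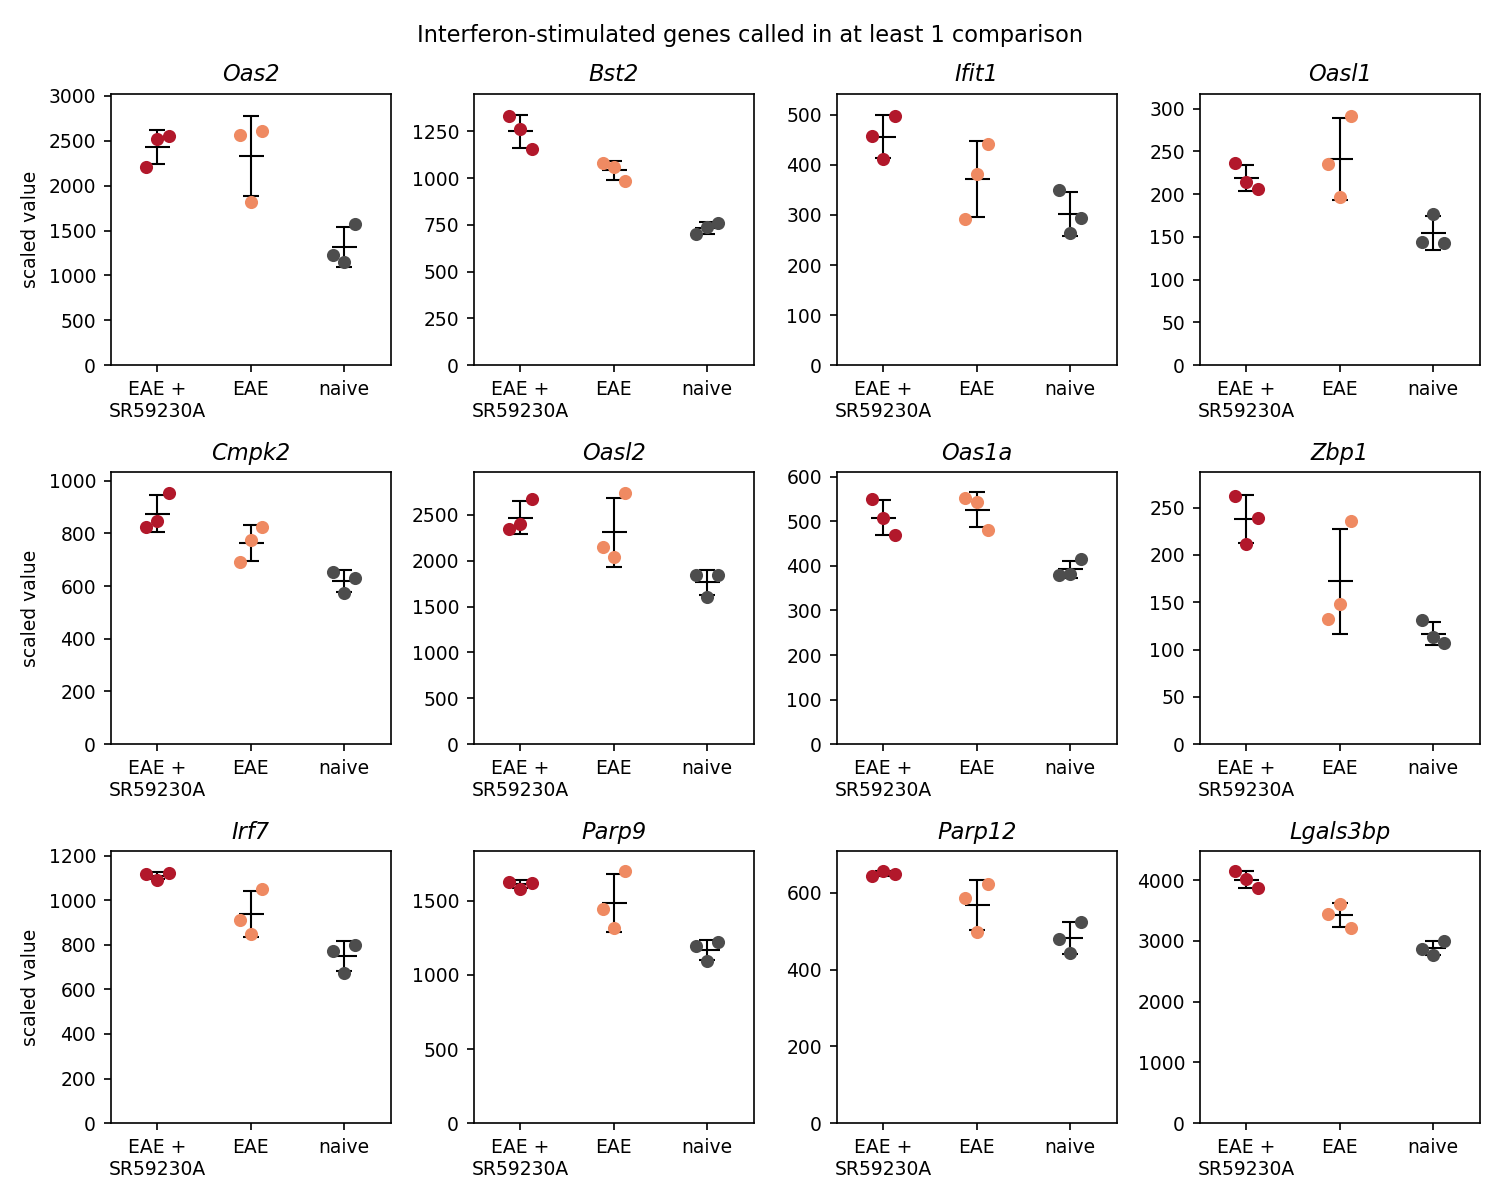
Points are the scaled values of the 3 libraries in each group for the 12 genes that were called in at least 1 comparison, with the mean and SD of each group, and each vertical axis starts at 0. For Bst2, Cmpk2, Irf7 and Lgals3bp the 3 groups form descending steps with no overlap, while EAE replicate 3 lies in the EAE + SR59230A range for Zbp1, Ifit1 and Oas1a and exceeds it for Oas2, Oasl1, Oasl2 and Parp9.

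The nucleic acid sensors did not move as a class. Zbp1, a sensor of Z-form nucleic acid that can trigger necroptosis, had the largest difference between EAE + SR59230A and naive mice among the 44 genes, with 262, 212 and 239 in EAE + SR59230A mice, 133, 148 and 236 in EAE mice, and 131, 113 and 107 in naive mice. EAE replicate 3 was in the treated range and the other EAE libraries were just above the naive ones. Zbp1 averaged 238 ± 25.2, 172 ± 55.4 and 117 ± 12.4 in EAE + SR59230A, EAE and naive mice, and was 1.02 ± 0.21 higher on the log2 scale in EAE + SR59230A than in naive mice (adjusted p = 0.0088). It differed by 0.52 ± 0.21 between EAE and naive mice (adjusted p = 0.13). The cytosolic RNA sensors Ddx58 (RIG-I) and Ifih1 (MDA5) had differences from naive mice of -0.04 ± 0.14 and -0.03 ± 0.12 in EAE + SR59230A mice and of -0.09 ± 0.14 and -0.23 ± 0.12 in EAE mice, and none was called. Their regulator Dhx58 (LGP2) differed by 0.19 ± 0.12 and Trim25, a ubiquitin ligase for RIG-I, by -0.08 ± 0.14 between EAE + SR59230A and naive mice, likewise not called. Without EAE replicate 3, Ifih1 was called lower in EAE than in naive mice.

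Of the 5 transcription factors, Irf7 alone was called, in EAE + SR59230A against naive mice (20%, against 10.2% of all genes called higher). IRF7 amplifies type I interferon production once it has itself been induced. Its values were 1117, 1090 and 1122 in EAE + SR59230A mice, 909, 848 and 1050 in EAE mice, and 773, 675 and 799 in naive mice, with no overlap between any groups. Irf7 was 0.57 ± 0.11 higher in EAE + SR59230A than in naive mice (adjusted p = 0.0058), and differed by 0.32 ± 0.11 between EAE and naive mice (adjusted p = 0.072) and by 0.25 ± 0.11 between EAE + SR59230A and EAE mice (unadjusted p = 0.04). The EAE difference from naive mice passed without EAE replicate 2 or naive replicate 3 (adjusted p = 0.035 and 0.046). Stat2, a subunit of ISGF3, had 675, 623 and 557 in EAE + SR59230A mice, 529, 449 and 557 in EAE mice, and 465, 497 and 479 in naive mice. The treated libraries were all above the naive ones, with a difference of 0.36 ± 0.12 that was not called (adjusted p = 0.06) but passed without any 1 EAE replicate or without treated replicate 3. Irf9, the DNA-binding subunit of the same complex, differed by 0.00 ± 0.10 between EAE + SR59230A and naive mice. Nlrc5, the activator of MHC class I genes, and Irf1 had differences of 0.32 ± 0.10 and 0.38 ± 0.16 from naive mice in the treated group, with adjusted p = 0.056 and 0.13. Nlrc5 passed without any 1 EAE replicate or without naive replicate 2, and Irf1 without EAE replicate 1.

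Genes for ISG15 removal, ADP-ribosylation and TRIM proteins held 2 calls among 7, both in EAE + SR59230A against naive mice. That is 28.6% of the 7, against 10.2% of all genes called higher, and none was called in EAE mice (against 9.13%). Parp9, which works in a complex with the ubiquitin ligase DTX3L, had 1628, 1580 and 1622 in EAE + SR59230A mice, 1447, 1314 and 1698 in EAE mice, and 1193, 1091 and 1223 in naive mice. Parp12, an ADP-ribosyltransferase with antiviral activity, had 644, 657 and 649 in EAE + SR59230A mice, 586, 497 and 622 in EAE mice, and 480, 443 and 524 in naive mice. The treated libraries of both genes were above all naive ones, by 0.46 ± 0.11 for Parp9 (adjusted p = 0.015) and 0.43 ± 0.11 for Parp12 (adjusted p = 0.027). The Parp9 difference between EAE and naive mice was 0.34 ± 0.11 (adjusted p = 0.055), and it passed without any 1 treated replicate, EAE replicate 2 or naive replicate 3 (adjusted p between 0.018 and 0.049). The Parp12 call was lost without treated replicate 2 or naive replicate 1 (adjusted p = 0.055 and 0.052). Usp18, which removes ISG15 from proteins and dampens the type I interferon receptor, had 224, 151 and 113 in EAE + SR59230A mice, 127, 87.0 and 140 in EAE mice, and 107, 89.1 and 116 in naive mice. The highest of these came from treated replicate 1 and the groups overlapped, with a difference of 0.59 ± 0.26 between EAE + SR59230A and naive mice (adjusted p = 0.15). Dtx3l, the partner of Parp9, differed by 0.05 ± 0.14 in the same comparison.

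Lgals3bp, a secreted glycoprotein that binds galectins, had 4147, 4014 and 3869 in EAE + SR59230A mice, 3445, 3607 and 3210 in EAE mice, and 2869, 2767 and 3004 in naive mice. Its groups were separate, and it was 0.48 ± 0.09 higher in EAE + SR59230A than in naive mice (adjusted p = 0.0058). The differences between EAE and naive mice (0.25 ± 0.09) and between EAE + SR59230A and EAE mice (0.23 ± 0.09) were not called. The chaperone gene Rtp4, the pro-apoptotic Xaf1 and Ifi27l2a differed by 0.23 ± 0.10, -0.06 ± 0.17 and 0.24 ± 0.27 between EAE + SR59230A and naive mice, with adjusted p = 0.14, 0.84 and 0.59.

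None of the 6 genes of MHC class I presentation was called by limma in any comparison. At an unadjusted p under 0.05, 1 (H2-D1) was higher in EAE + SR59230A than in EAE mice (16.7%, against 2.23% of all genes). In EAE + SR59230A against naive mice 1 (Tapbp) was higher (16.7%, against 18.5%), and in EAE against naive mice 0 were (against 17.1%). Tapbp, which holds empty class I molecules at the peptide transporter, was called in EAE + SR59230A against naive mice without EAE replicate 2, EAE replicate 3 or naive replicate 2. B2m, the light chain, had 18758, 18427 and 18085 in EAE + SR59230A mice, 17582, 17839 and 17881 in EAE mice, and 18231, 19033 and 17804 in naive mice. H2-D1, a class I heavy chain, had 8661, 8474 and 8129 in EAE + SR59230A mice, 7145, 7461 and 7115 in EAE mice, and 7665, 8207 and 7419 in naive mice. For both, the treated libraries were above all EAE libraries and overlapped the naive ones, and the H2-D1 difference from EAE mice was 0.22 ± 0.10 (unadjusted p = 0.044, adjusted p = 0.998). With Tap1, Tap2 and Tapbp, the treated libraries were above all EAE libraries for 5 of the 6 genes (83.3%, against 8.46% of all genes). Tap1, Tap2 and Tapbp were also above all naive libraries (50%, against 26.4%). The log2 fold change of EAE + SR59230A over EAE mice was above 0 for 6 of 6 of these genes (against 52.5% of all genes), and for 4 of 6 without scaling between libraries. H2-K1 and H2-D1 are close relatives, as are other class I genes, so reads may have been divided between them. Outside these 6 genes, H2-Q4, H2-Q6 and H2-Q7 were called lower in EAE than in naive mice (-0.42, -1.04 and -0.61). H2-Q4 and H2-Q6 were also lower in EAE + SR59230A mice (-0.35 and -0.82), where H2-T24 was higher (0.59). Tapbpl, Psmb8, Calr, Pdia3 and Canx, also of antigen presentation, were called higher in both comparisons with naive mice. Psmb9, Psmb10, Psme1, Erap1, H2-M3 and H2-T22 were called in neither of them.

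**Figure D4:**
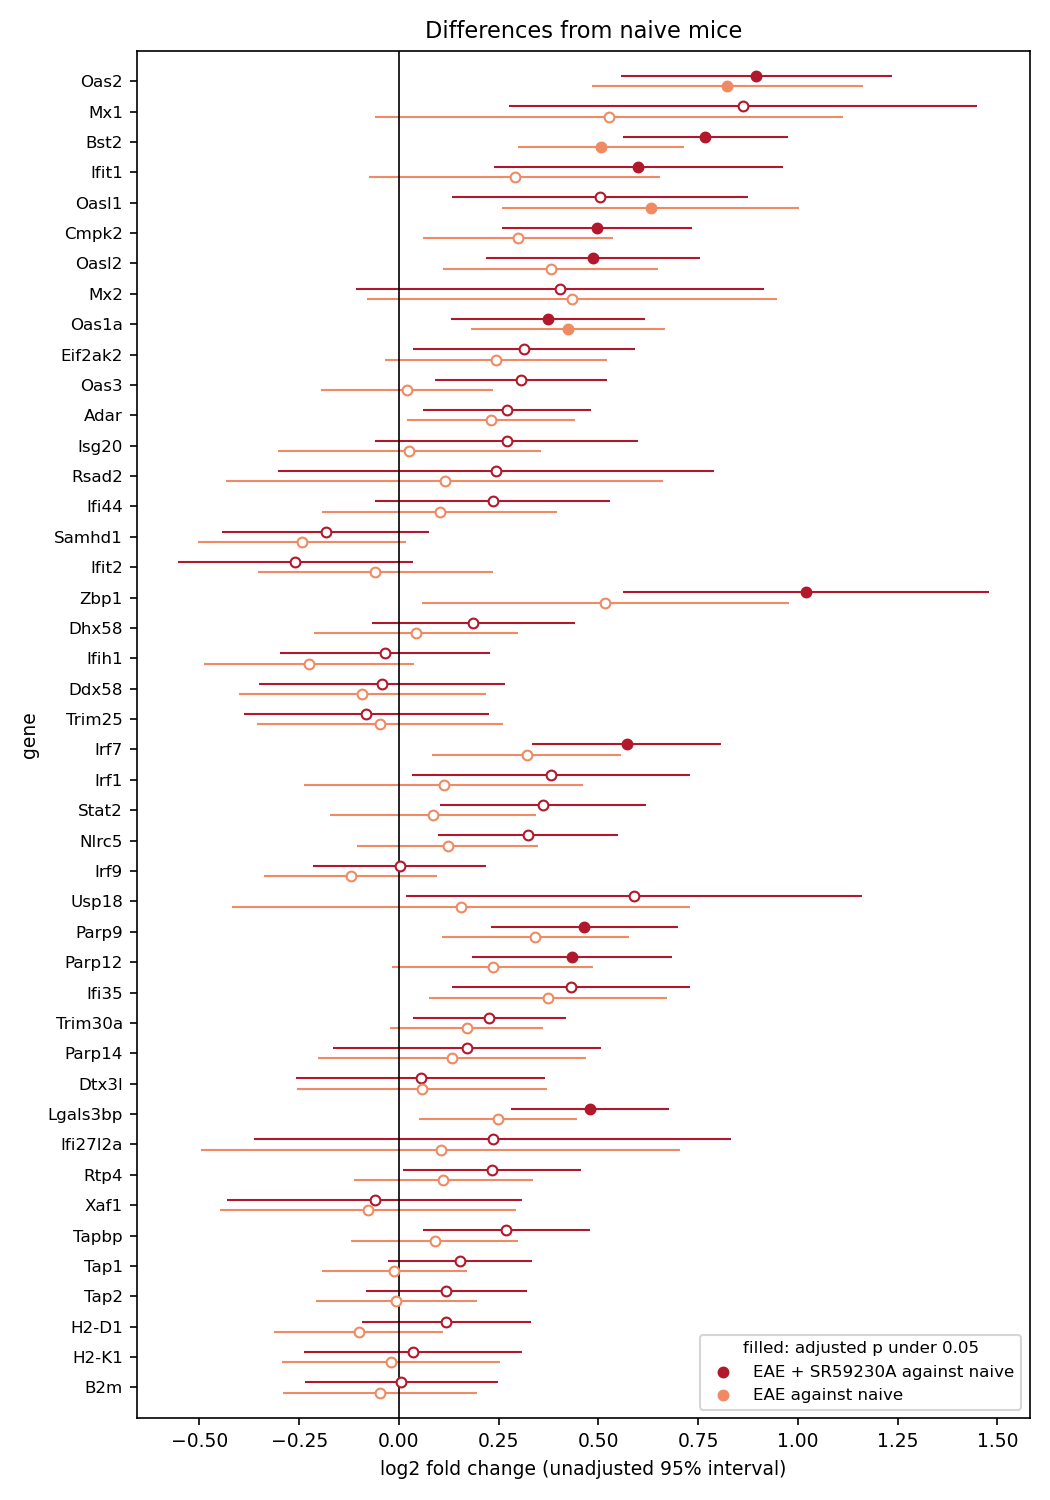
Points give the log2 fold change of each gene from naive mice and lines the unadjusted 95% interval, dark red for EAE + SR59230A and orange for EAE. Filled points passed the adjusted threshold. Zbp1 and Oas2 lie farthest to the right in EAE + SR59230A mice (1.02 and 0.90), and the MHC class I genes of the list lie near 0.

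Upstream of the list, 13 tested genes of interferon receptors and their signalling held 3 calls in EAE + SR59230A mice (23.1%, against 10.2% of all genes) and 1 in EAE mice (7.69%, against 9.13%), all higher than in naive mice. Socs3, a feedback inhibitor of cytokine receptors, was called in both, with 41.7, 27.5 and 27.8 in EAE + SR59230A mice, 25.3, 26.6 and 45.9 in EAE mice, and 6.08, 8.53 and 5.63 in naive mice. Its log2 fold change was 2.10 in each comparison with naive mice (adjusted p = 0.0041 with SR59230A and 0.0042 without). The naive values of Socs3 were under the filter value of 10, which it passed through the immunized libraries alone. Stat3 and Il10rb were the other calls in EAE + SR59230A mice (0.42 and 0.37, adjusted p = 0.0082 and 0.019). The type I receptor genes Ifnar1 and Ifnar2 differed from naive mice by 0.23 and 0.18 in EAE + SR59230A mice and by 0.00 and 0.11 in EAE mice, and were not called. The γ-interferon receptor genes Ifngr1 and Ifngr2 differed by 0.17 and 0.26 in EAE + SR59230A mice and by 0.32 and 0.48 in EAE mice. Jak2 differed by -0.32 and -0.30, with both immunized groups below all naive libraries. None of these 3 genes was called. Of 20 listed interferon genes 6 could be tested, and none was called by limma in any comparison, with none higher at an unadjusted p under 0.05. At that threshold 3 were lower in EAE + SR59230A than in naive mice (12.6% of all genes were), 1 in EAE than in naive mice (11.7%) and 1 in EAE + SR59230A than in EAE mice (1.64%). The 3 were Ifna9, Ifna12 and Ifna13, whose scaled values lay between 4.08 and 23.7, close to the filter value of 10.

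Among 23 genes of the sensing pathways that induce interferon, 6 were higher in EAE + SR59230A mice (26.1%, against 10.2% of all genes), and 7 were higher (30.4%, against 9.13%) and 1 lower in EAE mice, each against naive mice. Tlr9, a receptor for unmethylated DNA, had 129, 141 and 147 in EAE + SR59230A mice, 107, 83.9 and 115 in EAE mice, and 45.6, 37.0 and 58.2 in naive mice. Unc93b1, which carries nucleic acid-sensing Toll-like receptors to endosomes, had 5744, 5523 and 5896 in EAE + SR59230A mice, 4296, 4841 and 5006 in EAE mice, and 2909, 2879 and 2853 in naive mice. Both had 3 separate groups, with log2 fold changes from naive mice of 1.57 and 0.99 in EAE + SR59230A mice (adjusted p = 9.6e-04 and 8.0e-05) and of 1.12 and 0.71 in EAE mice (adjusted p = 0.0064 and 6.9e-04). Myd88, Tmem173 (STING) and Irf8 were also called higher in both comparisons with naive mice, Tlr7 in EAE + SR59230A mice, and Tlr8 and Mb21d1 (cGAS) in EAE mice. Tlr8 was low, with 14.4, 16.4 and 20.8 in EAE mice and 2.03, 4.74 and 1.88 in naive mice. Its naive values were under the filter value of 10, so it entered the test through immunized libraries alone. Irf5 was lower in EAE than in naive mice (-0.58, adjusted p = 0.0075).

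Of 81 other interferon-inducible genes tested, 24 were higher (29.6%, against 10.2% of all genes) and 3 lower in EAE + SR59230A mice, and 15 were higher (18.5%, against 9.13%) and 5 lower in EAE mice, each against naive mice. None was called by limma between EAE + SR59230A and EAE mice, where 14 were higher (17.3%, against 2.23% of all genes) and 1 lower at an unadjusted p under 0.05. Their median log2 fold changes were 0.26, 0.10 and 0.11 for EAE + SR59230A against naive, EAE against naive and EAE + SR59230A against EAE. Ly6a, the gene of the sorting marker Sca-1, had 2539, 2422 and 2339 in EAE + SR59230A mice, 2038, 1881 and 2379 in EAE mice, and 1439, 1741 and 1412 in naive mice. It was higher than in naive mice by 0.68 with SR59230A (adjusted p = 0.0033) and 0.46 without it (adjusted p = 0.023). Since cells were selected on Sca-1, its level is no independent result, and the part of the gate in the other differences was not tested.

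Markers of other cells also differed between the groups, though not all in the same direction. The summed scaled level of 9 plasmacytoid dendritic cell markers, a cell type known for high Irf7 and Bst2, was 7969 to 10259 in EAE + SR59230A mice, 5878 to 8333 in EAE mice and 5530 to 6316 in naive mice. Such a sum is weighted toward genes with high values. Irf8, listed above among the genes that induce interferon, averaged 4054, 2895 and 1294 in these groups, so it carries much of the difference in the sum. Of the 8 markers tested, Siglech, Cox6a2 and Irf8 were called higher in EAE + SR59230A than in naive mice, and in EAE mice Irf8 was called higher while Ccr9 and Runx2 were called lower. The log2 fold changes of Ccr9 and Runx2 from naive mice were -0.61 and -0.21 in EAE + SR59230A mice (not called) and -1.42 and -0.45 in EAE mice (adjusted p = 0.036 and 0.023). Siglech had 235, 77.5 and 55.5 in EAE + SR59230A mice, 30.7, 28.7 and 98.0 in EAE mice, and 12.2, 20.8 and 7.51 in naive mice. The highest Siglech library of each immunized group was also the library with the highest median of the 44 genes in its group. In naive mice it was the reverse, as replicate 2 had the highest Siglech value and the lowest median (-0.04). Not every marker of this cell type followed Siglech. In EAE + SR59230A mice Ccr9 was highest in replicate 2 (112) and Tcf4 in replicate 3 (1800), while the others were highest in replicate 1. In EAE mice Cox6a2 and Pacsin1 were highest in replicate 1 (96.6 and 12.6), and the others in replicate 3. The summed level of 7 monocyte markers was 5390 to 6415 in EAE + SR59230A mice, 5540 to 6402 in EAE mice and 1131 to 1593 in naive mice, and that of 8 neutrophil markers 6929 to 15466, 3052 to 15225 and 2276 to 6039. In the same order of groups, 6 T and NK cell markers had 1067 to 1112, 1014 to 1201 and 760 to 861. For 5 erythroid markers it was 1382 to 1444, 1225 to 1265 and 808 to 949. The 6 B lineage markers had 965 to 1055, 777 to 927 and 950 to 1254, with Pax5 and Igll1 called lower in EAE than in naive mice. Of the listed markers of these cells, Klk1, Ly6c2, Cd3e, Cd3d, Trac, Cd79a, Vpreb1, Hba-a1, Hbb-bs and Hbb-bt are not analysed here. None of the remaining markers was at 0 in all libraries, and the part of these cells in the differences was not tested. In bulk RNA, fewer or more cells of a type and less or more RNA per cell cannot be told apart. Of the LSK markers, Kit was expressed in every library and was lower in both immunized groups, with log2 fold changes from naive mice of -0.45 in EAE + SR59230A mice and -0.43 in EAE mice. Hlf (-1.38 and -1.48) and Mecom (-0.95 and -0.87) were also called lower in both, and Flt3 and Procr in EAE mice, while Ly6a was higher. The summed level of 9 LSK markers was 22471 to 23252 in EAE + SR59230A mice, 22159 to 22440 in EAE mice and 28041 to 29301 in naive mice.

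The share of the values assigned to olfactory and other chemosensory receptor genes, which these cells are not known to use, also ordered the groups. It was 0.0765% to 0.0948% in EAE + SR59230A mice, 0.102% to 0.116% in EAE mice and 0.144% to 0.172% in naive mice, with no overlap. With this share as a covariate, none of the 44 genes was called in any comparison, and the median log2 fold change was -0.02 in both comparisons with naive mice. Because the share does not overlap between groups, its part and that of the group cannot be told apart.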

How the data were processed

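RNA from LSK cells of 9 mice, 3 in each group as labelled, was prepared with the RNeasy micro kit, per the labels' protocols. A table of whole numbers, with 14940 gene symbols, was deposited by the authors. The submitters' processing notes name DESeq2, with no version or role, with aligner, counting tool, strand and genome build not given in the sources used here. The deposited values are treated as a score and not as counts: among the 4577 genes averaging 500 or more, 2 of the 8 directions in which 9 libraries can vary held 6.7e-05% and 5.94e-05% of the variance of ln(value + 1), which independent counts cannot do. How the authors made them is not stated, the spread between replicates may be understated, and depth cannot be recovered. The planned count test was therefore replaced by the planned test for adjusted values.

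Each library was divided by its median-of-ratios factor. Genes reaching 10 in 3 or more libraries entered limma-trend (limma 3.58.1, R 4.3.3) as log2(value + 1). The model covered all 9 libraries and held the 3 groups plus, as covariates, the 2 directions without variance, which left 4 residual degrees of freedom (prior 7.52). Tests were 2-sided, and p-values were adjusted by Benjamini and Hochberg's method, with calls at 0.05. A fold change on this scale understates that of low genes. The procedure was tested on simulated data. Promoters were searched with Python 3.11.15 in RefSeq sequences, and figures drawn with matplotlib 3.10.9. Mice were numbered in accession order. The members, the gene lists, the tests and the alternatives were chosen with earlier results of these data known. Each gene that passed in any comparison, and the 3 with the largest change in each, are given in full, and other genes are named by role.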

Additional observations from a re-analysis of the deposited data

How the results depend on the processing

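The number of listed genes called higher depended on the processing, and the number called between EAE + SR59230A and EAE mice was 0 under all 19 alternatives. For EAE against naive mice (4 higher), the number was 2 without scaling, 2 with upper-quartile scaling, 11 without the missing directions as covariates, 0 with the chemosensory share as a covariate, 1 without a variance trend and 9 with the libraries of the 2 groups only, and leaving out 1 library gave 2 to 9 higher and 0 to 1 lower. For EAE + SR59230A against naive mice (11 higher), the numbers under these settings were 4, 7, 21, 0, 2 and 25, and 9 to 21 on leaving out 1 library. Bst2 lost its calls with the chemosensory covariate alone. The median of the 44 genes for EAE against naive mice (0.11) was 0.038 with upper-quartile scaling, -0.019 with the chemosensory covariate and 0.054 to 0.198 on leaving out 1 library, lowest without EAE replicate 3 and highest without EAE replicate 2. For EAE + SR59230A against EAE (0.13) it was 0.042 without scaling, 0.033 with the chemosensory covariate and 0.071 to 0.201 on leaving out 1 library, lowest without EAE replicate 2 and highest without EAE replicate 3. For EAE + SR59230A against naive (0.27) it was 0.154 without scaling, 0.177 with upper-quartile scaling and -0.025 with the chemosensory covariate. Leaving out scaling moved the median of all genes to -0.11 in that comparison, and the median of the list minus that of all genes was 0.264 with the scaling used and 0.263 both without scaling and with upper-quartile scaling. Without scaling 27 of the 44 genes, in place of 38, were above 0 for EAE + SR59230A against EAE, and 38 were above the median of all genes in both cases. With the chemosensory covariate Oasl1 reversed in EAE against naive mice (-0.078, adjusted p = 0.942).

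Over all genes, 1853 were called for EAE against naive mice, and 1059 without scaling, 3485 without the missing directions, 109 with the chemosensory covariate and 778 without a variance trend. For EAE + SR59230A against EAE, 1 was called, and 0 with the chemosensory covariate and 0 without a variance trend. For EAE + SR59230A against naive, 1932 were called, and 1073 without scaling, 3920 without the missing directions, 18 with the chemosensory covariate, 864 without a variance trend, 4442 with the libraries of the 2 groups only and 1234 to 3327 on leaving out 1 library. The cause of these changes was not tested. Pseudocounts of 0.1 and 10 and filters of none or 50 kept each count of listed genes within 1 of its value. No paired analysis was possible because mice were numbered in accession order and no label pairs them. A DESeq2 fit was not run, since the values are not counts.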
